A study of Rattus norvegicus with 6 samples.

Results

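Albumin and the other carrier proteins of blood plasma were examined as 10 listed genes in liver tissue of rats (Rattus norvegicus). The genes were Alb, Ttr, Tf, Rbp4, Gc, Serpina1, Ambp, Fetub, Apoh and Hrg, and a member was the row of the deposited table whose gene symbol equals the listed one. Of the 10, 9 had such a row among the 32623 genes of the table, and all 9 passed the filter on low counts. No row bore the symbol Hrg, so that gene was not analysed here. RNA was sequenced in 6 libraries. The 3 TAE libraries came from rats treated by transarterial embolization, which closes a liver tumour's arterial supply from within the vessel. The 3 HCC libraries came from untreated control rats of the same hepatocellular carcinoma study. The sources used here do not give strain, age, sex, the way the tumours were raised, the time after embolization, the embolic agent or whether tumour or surrounding liver was sampled. The labels call the replicates biosamples without saying that each is a separate animal, so p-values measure only the spread between these libraries, which may be technical.

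Hepatocytes make most of the protein dissolved in blood plasma and secrete it continuously. Carrier proteins keep poorly soluble hormones, vitamins, metals and lipids in solution, and their genes are among the most highly transcribed in a healthy liver. Several of them, with albumin, transthyretin, transferrin and retinol-binding protein as textbook cases, are lowered by the liver during inflammation and are called negative acute-phase proteins, while Serpina1 counts in humans among the proteins that inflammation raises. Liver-enriched transcription factors such as HNF1, HNF4 and C/EBP proteins act on the promoters of these genes.

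The stretches of 250 bases before the start of transcription are shown for 4 genes, because Alb and Gc are relatives that lie close together on chromosome 14, Tf was the gene whose ratio to Alb did not overlap between the groups, and Ttr the gene whose level did not. They are RefSeq sequences of the GRCr8 build, at chr14:17906980-17907229 (minus strand) for Alb, chr14:18916005-18916254 (plus strand) for Gc, chr8:112695377-112695626 (minus strand) for Tf and chr18:12218508-12218757 (plus strand) for Ttr. They read 5′ to 3′ along the gene, and capitals mark letters that match 1 of the 5 motifs searched on both strands.
Alb: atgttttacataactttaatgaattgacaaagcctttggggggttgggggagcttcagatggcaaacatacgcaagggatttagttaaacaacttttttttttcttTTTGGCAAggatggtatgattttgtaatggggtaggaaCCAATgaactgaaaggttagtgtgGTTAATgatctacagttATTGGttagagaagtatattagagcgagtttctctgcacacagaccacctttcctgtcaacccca
Gc: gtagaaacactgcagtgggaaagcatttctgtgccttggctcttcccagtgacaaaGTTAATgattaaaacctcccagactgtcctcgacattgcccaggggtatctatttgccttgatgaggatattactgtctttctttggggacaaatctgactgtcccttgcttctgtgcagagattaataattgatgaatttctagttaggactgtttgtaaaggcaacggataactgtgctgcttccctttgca
Tf: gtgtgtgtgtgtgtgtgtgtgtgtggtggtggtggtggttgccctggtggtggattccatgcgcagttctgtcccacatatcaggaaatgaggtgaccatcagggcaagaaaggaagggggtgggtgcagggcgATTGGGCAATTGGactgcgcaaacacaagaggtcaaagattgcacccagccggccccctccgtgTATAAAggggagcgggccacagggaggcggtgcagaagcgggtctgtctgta
Ttr: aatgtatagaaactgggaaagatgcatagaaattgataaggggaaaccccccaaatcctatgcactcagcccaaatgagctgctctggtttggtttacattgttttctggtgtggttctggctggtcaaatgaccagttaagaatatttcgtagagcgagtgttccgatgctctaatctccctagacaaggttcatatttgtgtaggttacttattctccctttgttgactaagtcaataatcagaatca
The motifs were the HNF1 half-site GTTAAT, the HNF1 palindrome (that half-site, any base, then its reverse complement), the CCAAT box CCAAT, the TATA box TATAAA and the C/EBP motif TTGCNNAA, where N is any base. The HNF1 half-site was present before Alb and Gc, 2 of the 8 members with a promoter in the table, and in 6.45% of the 33469 rat promoters of the same length. The exact palindrome was in none of the 8 and in 0.00299% of all promoters. The CCAAT box was found before Alb, Tf and Ambp and in 34.0% of all promoters, the TATA box before Tf and Rbp4 and in 12.9%, and the C/EBP motif before Alb, Tf and Rbp4 and in 9.22%. In Tf the C/EBP match overlapped both CCAAT matches. None of the 5 motifs occurred in the windows of Ttr, Serpina1 or Apoh. The windows end at the starts that RefSeq gives, which were not checked, and bases after them were not searched. A match is a description of the letters and says nothing about binding, and Fetub and Hrg had no entry in the promoter table.

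The libraries held 13448286 to 16604067 counts each, and the TAE libraries differed more from each other than the HCC libraries did. A chi-square comparison of the counts of 2 libraries at a time gave 51.0 to 209 per degree of freedom among TAE libraries and 5.80 to 14.1 among HCC libraries. Scaling factors for library composition (TMM, edgeR's trimmed mean of M-values) were 1.05, 1.13 and 0.893 in TAE replicates 1, 2 and 3 and 0.966 to 0.995 in HCC. Hepatocyte markers outside the members checked the tissue label: all 10 were detected, with a summed level of 1517 to 5157 FPKM (the level of a gene scaled to its exonic length and to the library total) in TAE and 3440 to 4694 FPKM in HCC. Coordinates of genes below are those of the deposited table. Its gene ends on chromosome 1 reach 282724300, beyond that chromosome in mRatBN7.2, the build the submitters' processing notes name, so their build is not settled.

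None of the 9 plasma carrier genes passed the test between TAE and HCC liver, although each had a negative log2 change, and 1 TAE library went against the other two. In TAE replicates 1 and 2 all 9 genes lay below every HCC library. In TAE replicate 3, 8 of the 9 lay above every HCC library on the composition-scaled level, and Ttr alone lay below. In bulk tissue, fewer hepatocytes and less of these transcripts per hepatocyte cannot be told apart. The log2 changes ran from -0.85 for Ttr to -0.22 for Tf with a median of -0.56, where the median of all 14499 genes tested was -0.03 and 53.1% of them were negative. With edgeR's quasi-likelihood test at an adjusted p of 0.05 (Benjamini-Hochberg over all genes tested), 0 of the 9 were lower and 0 were higher, against 0.310% of all genes lower and 2.70% higher. At an unadjusted p under 0.05, 1 of the 9 passed, which was Ttr. The share of all genes under that unadjusted p was not computed. Counts at an unadjusted p, here and below, therefore have no background to be read against. DESeq2, another count model, likewise called 0 of the 9, against 1.68% of genes called lower and 8.90% called higher.

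**Figure D1:**
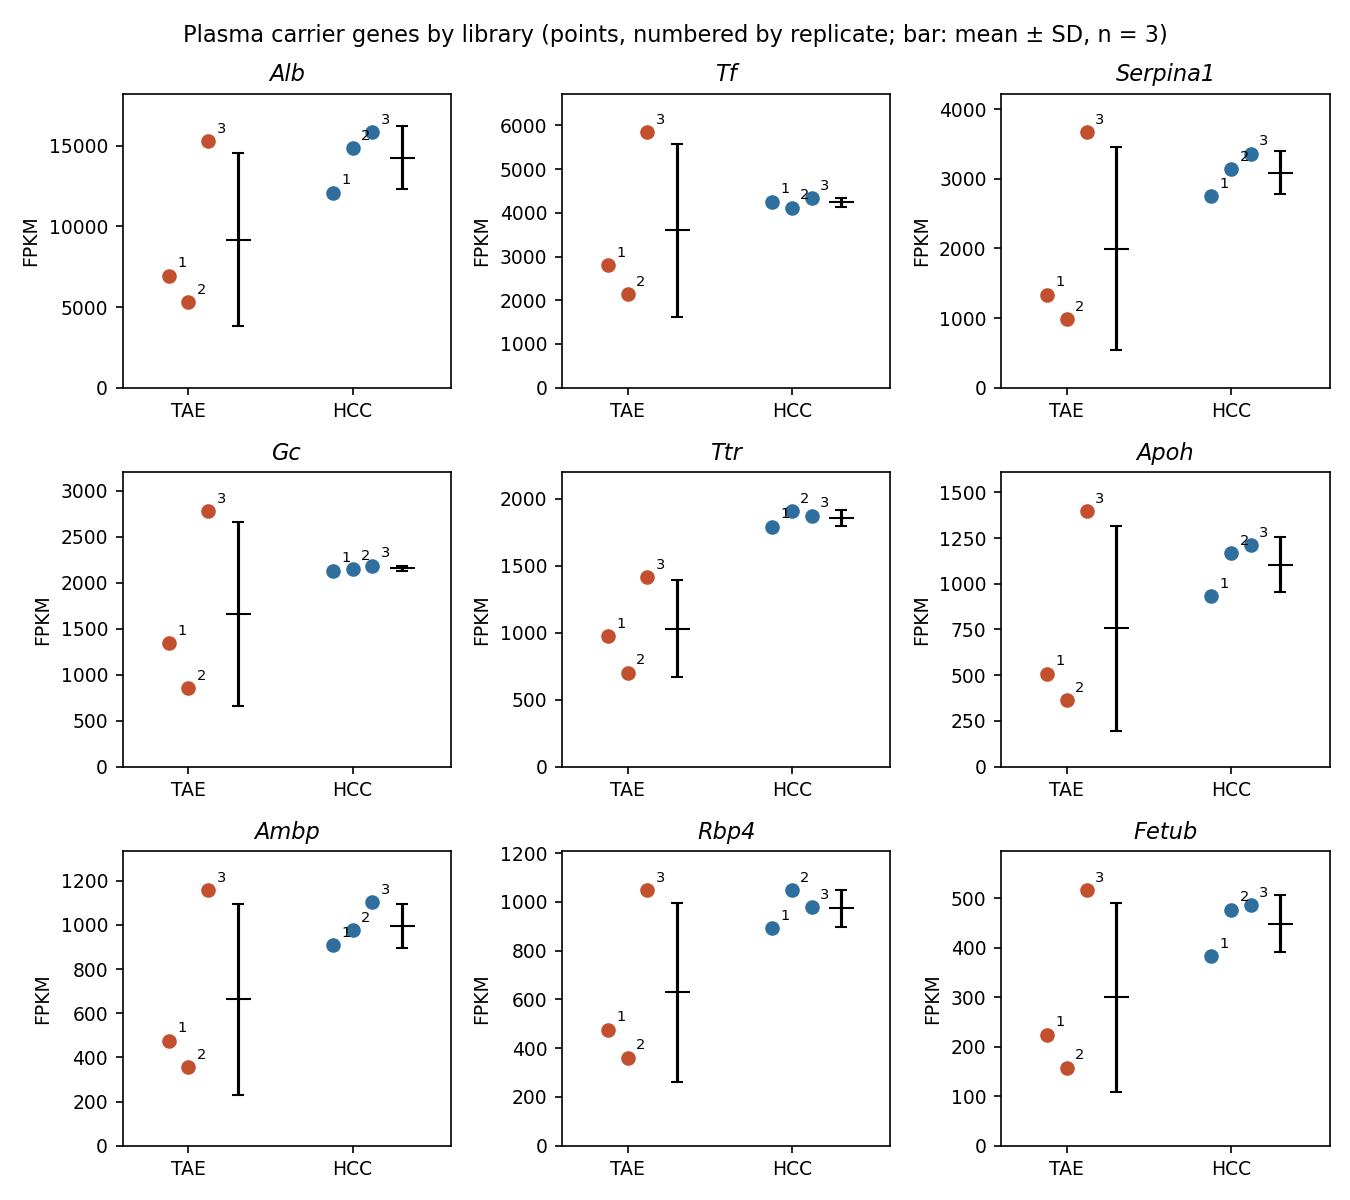
FPKM of the 9 measured carrier genes, 1 panel per gene with its own axis from 0. Points are single libraries numbered by replicate, TAE left and HCC right, and bars are the mean ± SD of 3 libraries. TAE replicates 1 and 2 sit below the HCC libraries in every panel, and TAE replicate 3 lies within or above their range in every panel but that of Ttr.

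Albumin is the most abundant plasma protein, which holds the colloid osmotic pressure of blood and carries fatty acids, bilirubin and many drugs. Alb (ENSRNOG00000002911, chromosome 14, 19176277 to 19191863, minus strand) had 6948, 5318 and 15304 FPKM in TAE replicates 1, 2 and 3, against 12096, 14853 and 15868 FPKM in HCC replicates 1, 2 and 3. TAE replicates 1 and 2 were low and TAE replicate 3 lay within the HCC range, so the groups overlapped. The log2 change was -0.62 ± 0.48 (SE, edgeR adjusted p = 0.446). By FPKM, Alb ranked as gene 1 in all 3 HCC libraries and in TAE replicate 3, but 5 and 6 in TAE replicates 1 and 2.

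Gc encodes the vitamin D binding protein, a member of the albumin family that also scavenges actin released from damaged cells. Gc (ENSRNOG00000003119, chromosome 14, 20266891 to 20302581, plus strand) had 1346, 850 and 2780 FPKM in TAE replicates 1, 2 and 3, against 2129, 2154 and 2185 FPKM in HCC. The HCC libraries were nearly equal, with a ratio of highest to lowest of 1.03, while the same ratio within TAE was 3.27. The log2 change was -0.35 ± 0.47 (SE, edgeR adjusted p = 0.657).

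Transthyretin carries thyroxine and, in complex with retinol-binding protein, retinol. Ttr (ENSRNOG00000016275, chromosome 18, 15532963 to 15540177, minus strand in the table) had 976, 703 and 1415 FPKM in TAE replicates 1, 2 and 3, against 1791, 1909 and 1873 FPKM in HCC. Every TAE library lay below every HCC library, which held for 1 of the 9 members and for 13.4% of all genes tested. The means were 1031 ± 359 FPKM in TAE and 1858 ± 60.7 FPKM in HCC (SD, n = 3 each), a log2 change of -0.85 ± 0.32 (SE) or 0.553-fold. It missed the threshold when adjusted across the table (edgeR adjusted p = 0.178, DESeq2 adjusted p = 0.0753).

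Rbp4, the retinol-binding protein that leaves the liver bound to transthyretin, did not share that separation of the groups. Rbp4 (ENSRNOG00000015518, chromosome 1, 256806472 to 256813711, minus strand) had 476, 361 and 1050 FPKM in TAE replicates 1, 2 and 3, against 894, 1048 and 978 FPKM in HCC. TAE replicate 3 was level with the highest HCC library, and the log2 change was -0.61 ± 0.45 (SE, edgeR adjusted p = 0.424).

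Transferrin, the iron carrier of plasma, was the member with the smallest difference between the groups. Tf (ENSRNOG00000030625, chromosome 8, 111673547 to 111721333, minus strand) had 2807, 2138 and 5852 FPKM in TAE replicates 1, 2 and 3, against 4257, 4118 and 4336 FPKM in HCC. TAE replicate 3 stood above all HCC libraries and the other TAE libraries below them. The log2 change was -0.22 ± 0.44 (SE, edgeR adjusted p = 0.777), and it was 0.098 without TAE replicate 2, so its sign rested on that library.

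Serpina1 encodes alpha-1-antitrypsin, the plasma inhibitor of neutrophil elastase, and Ambp a precursor that is cut into the haem-binding lipocalin alpha-1-microglobulin and the protease inhibitor bikunin. Serpina1 (ENSRNOG00000032669, chromosome 6, 127610243 to 127632265, minus strand) had 1337, 985 and 3673 FPKM in TAE replicates 1, 2 and 3, against 2753, 3139 and 3361 FPKM in HCC. It spread widely within TAE, 3.73-fold between the lowest and highest library, and its log2 change was -0.59 ± 0.54 (SE, edgeR adjusted p = 0.518). Ambp (ENSRNOG00000006889, chromosome 5, 78975678 to 78985990, minus strand) had 475, 357 and 1159 FPKM in TAE, against 907, 977 and 1104 FPKM in HCC, a log2 change of -0.56 ± 0.49 (SE, edgeR adjusted p = 0.498). In both genes TAE replicate 3 exceeded the highest HCC library.

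Fetub encodes fetuin-B, a protease inhibitor of the cystatin group needed for fertilisation in mice, and Apoh encodes beta-2-glycoprotein I, which binds anionic phospholipids and lipoproteins. Fetub (ENSRNOG00000001806, chromosome 11, 81648885 to 81660395, minus strand) had 224, 158 and 517 FPKM in TAE replicates 1, 2 and 3, against 383, 477 and 487 FPKM in HCC, a log2 change of -0.56 ± 0.48 (SE, edgeR adjusted p = 0.495). Apoh (ENSRNOG00000003566, chromosome 10, 96639924 to 96653938, plus strand) had 509, 363 and 1398 FPKM in TAE, against 931, 1167 and 1211 FPKM in HCC, a log2 change of -0.51 ± 0.54 (SE, edgeR adjusted p = 0.580). Apoh had the widest spread of the 9 within TAE, 3.85-fold between lowest and highest library, against 1.30-fold within HCC.

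Hrg, the histidine-rich glycoprotein that binds haem, heparin and zinc, has a close relative in the rat genome, and the row of that relative is given because the listed gene had none. It was chosen after its values were seen and counts as no member. The row LOC681544 is described in the table as similar to histidine-rich glycoprotein. In RefSeq's GRCr8 gene table the entry of that number carries Hrg as an alias and lies on chromosome 11, as Hrg does. LOC681544 (ENSRNOG00000001809) had 109, 84.0 and 325 FPKM in TAE replicates 1, 2 and 3, against 195, 184 and 178 FPKM in HCC, a log2 change of -0.06 ± 0.54 (SE, edgeR adjusted p = 0.954). Its TAE libraries lay on both sides of the HCC libraries. Whether reads were shared in counting between such similar genes was not tested.

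**Figure D2:**
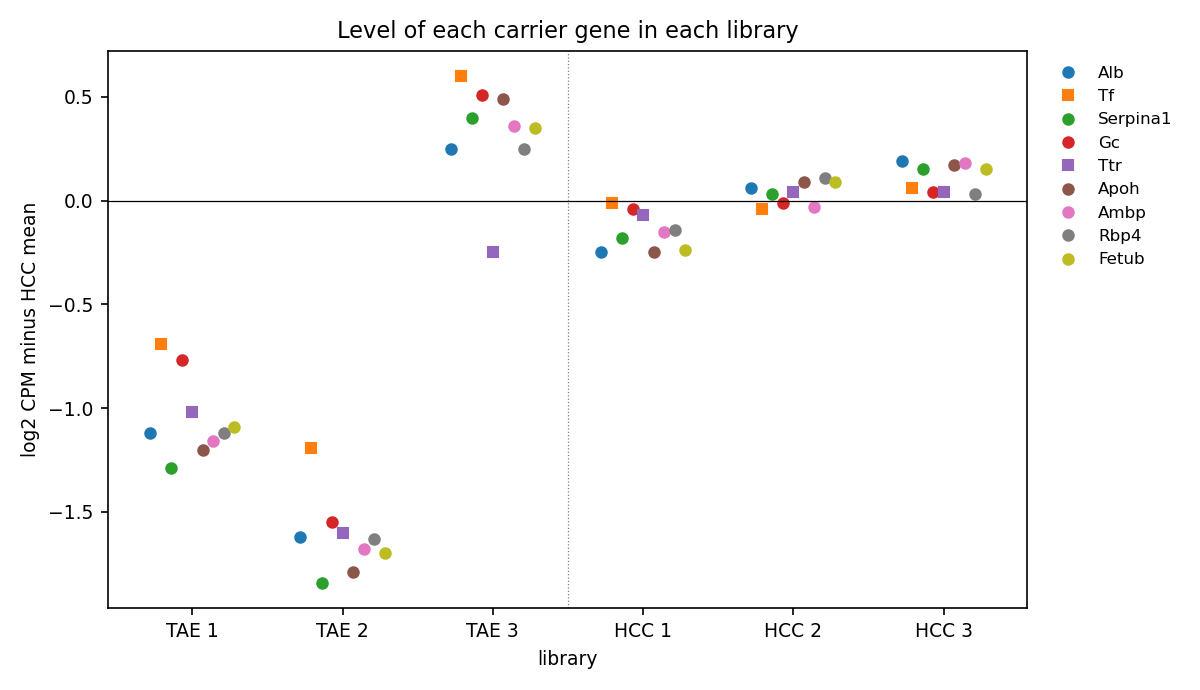
Level of each carrier gene in each library as log2 CPM (each count divided by its TMM-scaled library size) minus the gene's HCC mean, TAE libraries left of the dotted line and HCC libraries right of it. The 9 genes stand together at -1.29 to -0.69 in TAE replicate 1 and at -1.84 to -1.19 in TAE replicate 2, and all but Ttr are above 0 in TAE replicate 3.

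Seen by library, the members moved as a block whose height differed between the TAE libraries. Relative to the HCC mean, their median log2 CPM stood at -1.12 in TAE replicate 1, -1.63 in TAE replicate 2 and 0.36 in TAE replicate 3, against -0.15, 0.04 and 0.15 in HCC replicates 1, 2 and 3. The median of all genes tested was within -0.01 to 0.01 in the same TAE libraries. The pattern with TAE replicates 1 and 2 below and TAE replicate 3 above all HCC libraries held for 8 of the 9 members and for 5.31% of all genes tested, a description made after the values were seen. The 9 genes together took 3.10%, 2.32% and 6.82% of all counts in TAE replicates 1, 2 and 3, against 5.26%, 5.93% and 6.27% in HCC replicates 1, 2 and 3. The mean share was 4.08 ± 2.40% in TAE and 5.82 ± 0.515% in HCC (SD, n = 3 each). That difference of -1.74 percentage points gave p = 0.4 in a two-sided exact permutation test, where 3 libraries against 3 cannot go below 0.1. It was -3.11 points without TAE replicate 3 and -0.858 points without TAE replicate 2.

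TAE replicate 3 decided whether the members were called. Without it, edgeR called 9 of 9 members lower at an adjusted p of 0.05, against 3.51% of all genes called lower in that fit. The log2 changes then ran from -1.52 ± 0.20 for Serpina1 (edgeR adjusted p = 0.0142) to -0.89 ± 0.17 for Tf (edgeR adjusted p = 0.0241), with a median of -1.33. Alb then had a log2 change of -1.33 ± 0.20, or 0.397-fold (edgeR adjusted p = 0.0156). Ttr, with -1.26 ± 0.18 (edgeR adjusted p = 0.0155), was no longer the member with the most negative value. Without TAE replicate 2, in contrast, 0 of 9 were called lower against 9.56% of all genes (1 at an unadjusted p under 0.05, in edgeR), the median was -0.21, and Tf and Gc had values of 0.098 and 0.0032. Without TAE replicate 1 the median was -0.33, with 0 members called by edgeR, 0 at an unadjusted p under 0.05, and 1 gene called in all. Which of these libraries stands for embolized liver in general cannot be told from 3 libraries.

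**Figure D3:**
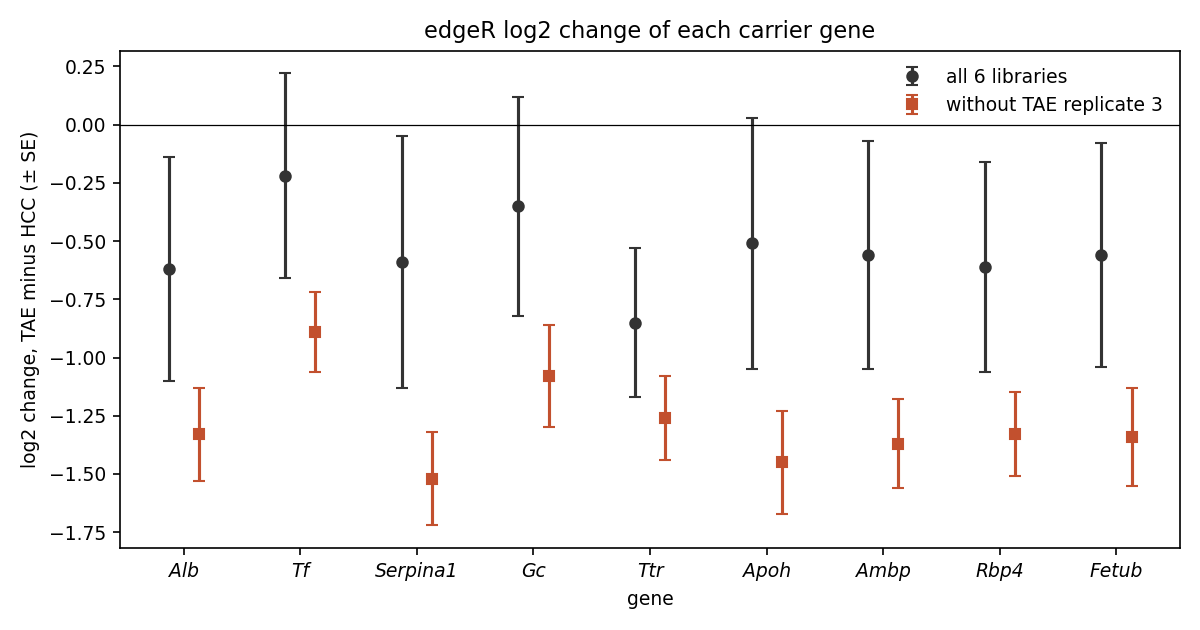
edgeR log2 change of each carrier gene, TAE minus HCC, with its standard error, from all 6 libraries (circles) and without TAE replicate 3 (squares). Every value lies below 0, and the values without TAE replicate 3 are lower and have shorter error bars, from -1.52 to -0.89 against -0.85 to -0.22.

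Within single libraries the order of the members' levels was much alike in both groups, while neighbouring ranges across libraries stood apart only in HCC. In HCC the order of mean FPKM was Alb, Tf, Serpina1, Gc, Ttr, Apoh, Ambp, Rbp4 and Fetub, and 6 of the 8 neighbouring pairs had ranges that did not overlap. The ranges of Apoh and Ambp, and of Ambp and Rbp4, overlapped. Apoh still lay above Ambp in each HCC library, while Ambp lay above Rbp4 in 2 of the 3. The TAE means had the same order, but Serpina1 lay above Gc in 2 of the 3 TAE libraries. Ambp lay above Rbp4 in 1 of them, TAE replicate 3. The other neighbours kept that order in each TAE library. In TAE, 0 of the 8 neighbouring pairs had ranges apart, since each gene varied 2.01-fold (Ttr) to 3.85-fold (Apoh) between the TAE libraries. Within HCC these ratios of highest to lowest library were 1.03-fold (Gc) to 1.31-fold (Alb).

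Counts of the other members relative to those of Alb in the same library do not depend on library scaling. Tf had 63.9, 63.6 and 60.5 counts per 100 Alb counts in TAE replicates 1, 2 and 3, against 55.6, 43.8 and 43.2 in HCC replicates 1, 2 and 3. All 3 TAE libraries thus lay above all HCC libraries, also TAE replicate 3, where both genes were high. On the log2 scale the ratio was -0.68 ± 0.04 in TAE and -1.08 ± 0.21 in HCC (SD, n = 3 each). The difference of 0.41 gave p = 0.1 in a two-sided exact permutation test, the smallest the design allows, and 0.8 when adjusted over the 8 ratios. It stayed between 0.34 and 0.52 when any library was left out. Of the 8 ratios, 1 was above all HCC libraries in all TAE libraries, whereas 23.7% of all genes tested showed this for their ratio to Alb.

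The remaining ratios to Alb overlapped between the groups. Gc had 16.8, 13.9 and 15.8 counts per 100 Alb counts in TAE against 15.3, 12.6 and 11.9 in HCC, a log2 difference of 0.23 (exact permutation p = 0.2). Ttr had 4.76, 4.48 and 3.13 counts per 100 Alb counts in TAE against 5.02, 4.36 and 4.00 in HCC, so that TAE replicate 3 was the lowest of all libraries for this ratio. Serpina1 and Apoh had their highest ratio there, 20.4 and 5.45 counts per 100 Alb counts, and their lowest, 15.8 and 4.07, in TAE replicate 2. Rbp4 held 3.11, 3.08 and 3.12 counts per 100 Alb counts in TAE against 3.36, 3.21 and 2.80 in HCC. The log2 differences of Rbp4, Ambp, Fetub and Apoh were -0.0043, 0.0057, 0.018 and -0.0048, each with an exact permutation p of at least 0.8.

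**Figure D4:**
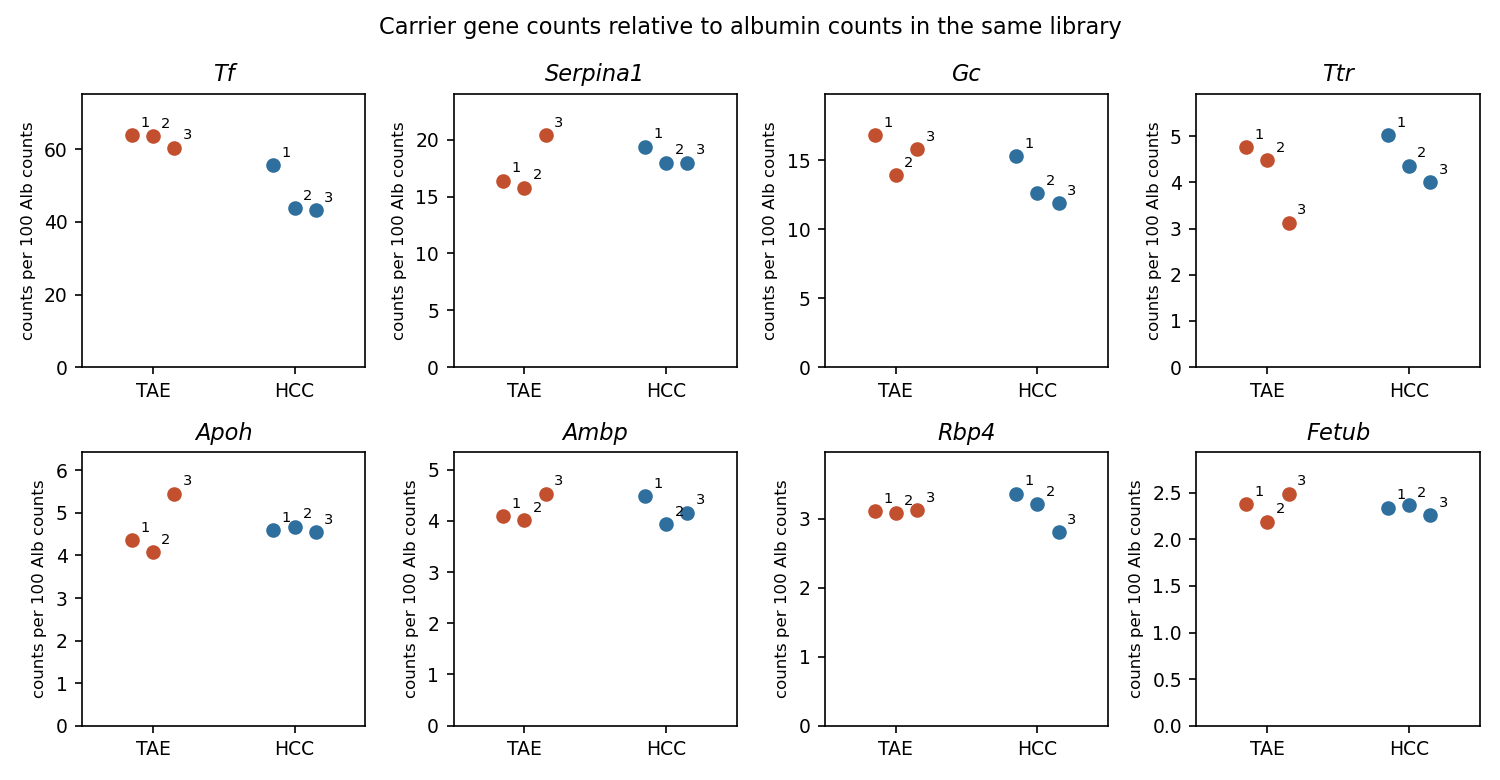
Counts of 8 carrier genes per 100 Alb counts in the same library, 1 panel per gene with an axis from 0. Points are single libraries numbered by replicate, TAE left and HCC right. Tf is the panel in which the 3 TAE points, 60.5 to 63.9, lie above the 3 HCC points, 43.2 to 55.6.

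Most, but not all, of the other carriers and relatives of the members split between the TAE libraries as the members did. The list held 26 genes, of which 24 were in the table and 23 were tested, and Ahsg and Serpina3n had no row of that symbol. None passed in edgeR in either direction, with 5 at an unadjusted p under 0.05, and DESeq2 called 2 lower and 1 higher. Negative log2 changes were found for 18, and the median was -0.38. Of the 23, 14 had TAE replicates 1 and 2 below and TAE replicate 3 above all HCC libraries, against 5.31% of all genes tested. All 3 TAE libraries lay below HCC in 2 (Igfals and Apoa4), against 13.4% of all genes, and above it in 1 (Pltp). The others followed none of these patterns. The list median relative to HCC stood at -0.83, -1.42 and 0.44 in TAE replicates 1, 2 and 3. The most abundant genes of the list were Hp and Hpx, which encode the haemoglobin scavenger haptoglobin and the haem carrier haemopexin. Hp had 3251, 2177 and 9962 FPKM in TAE, against 4693, 4806 and 5251 FPKM in HCC, and Hpx 2052, 1269 and 5439 FPKM in TAE, against 3493, 3189 and 3836 FPKM in HCC. Haptoglobin thus reached its highest level of all libraries in TAE replicate 3, above every HCC library. Without that library, 16 of the 23 were lower and 1, Pltp, was higher, against 3.51% of all genes lower and 4.82% higher. Without TAE replicate 2 instead, 1 was lower and 2 were higher, against 9.56% and 14.6% of all genes. Pltp, the phospholipid transfer protein, had 70.0, 40.0 and 89.4 FPKM in TAE against 15.5, 26.5 and 19.7 FPKM in HCC, and did not pass with all libraries (edgeR adjusted p = 0.0611).

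Receptors, binding partners and transcription factors connected with the carriers gave no edgeR call either. Of 16 receptors and binding partners, 15 were in the table, 12 were tested, and none passed in edgeR (median log2 change -0.15), with 3 at an unadjusted p under 0.05, while DESeq2 called 1 lower and 1 higher. Of these, 5 were lower and none higher without TAE replicate 3 (3.51% of all genes lower), whereas 1 was lower and 3 were higher without TAE replicate 2 (14.6% of all genes higher). The most abundant were Plg, the plasmin precursor that histidine-rich glycoprotein binds, with 297 FPKM in TAE and 379 FPKM in HCC on average, and Hamp. Hamp encodes hepcidin, the peptide hormone that limits iron release into plasma transferrin, and had 333, 232 and 212 FPKM in TAE against 433, 519 and 775 FPKM in HCC. Its groups did not overlap, but it did not pass (log2 change -1.21, edgeR adjusted p = 0.0564). Of 22 transcription factors of liver genes, all tested, none passed in edgeR, with 3 at an unadjusted p under 0.05, and DESeq2 called 1 higher. Negative log2 changes were found for 13, and the median was -0.17. By library their median was -0.29, -0.50 and 0.35 in TAE replicates 1, 2 and 3, a narrower span than that of the carriers. The most abundant were Stat3, the mediator of interleukin-6 signals, with 58.1 FPKM in TAE and 57.6 FPKM in HCC, and Cebpa, a C/EBP factor, with 44.3 FPKM in TAE and 33.9 FPKM in HCC. Without TAE replicate 3, 4 of the 22 were lower and none higher (3.51% of all genes lower), and without TAE replicate 2 none was lower and 4 were higher (14.6% of all genes higher).

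Markers of other cell types were recorded beside the carriers, and their part in the result was not tested. Hepatocyte markers outside the members had medians of -0.67, -1.64 and 0.34 in TAE replicates 1, 2 and 3, and 0 of 10 passed in edgeR (2 at an unadjusted p under 0.05) or in DESeq2. Without TAE replicate 3, 5 of the 10 were lower, against 3.51% of all genes, and none was higher. The median log2 change of the 10 was then -1.05. Without TAE replicate 2 none was called, against 9.56% of all genes lower and 14.6% higher. The most abundant were Fgb, a fibrinogen chain, with 957, 539 and 2271 FPKM in TAE against 1166, 1274 and 1549 FPKM in HCC, and Apoa1, the main protein of high-density lipoprotein, with 434, 368 and 1080 FPKM in TAE against 905, 1275 and 1510 FPKM in HCC. Of 10 macrophage and Kupffer cell markers, 4 rose (Lyz2, Cd68, Msr1 and Csf1r) and none fell, with a summed level of 3572 to 5063 FPKM in TAE and 1312 to 1568 FPKM in HCC. Their median stood at 0.87, 0.47 and 1.67 in TAE replicates 1, 2 and 3. It was thus higher than in HCC in all 3 TAE libraries, the one with high carrier levels included. The list did not move as one, since Clec4f, Marco and Cd163 had log2 changes of -0.38, -0.05 and -0.10 and, like the carriers, lay below all HCC libraries in TAE replicates 1 and 2 and above them in TAE replicate 3 on the composition-scaled level. Marco, a scavenger receptor, had 13.7, 12.6 and 80.5 FPKM in TAE replicates 1, 2 and 3, against 49.9, 31.9 and 34.5 FPKM in HCC. Without TAE replicate 3, Clec4f and Marco were lower (edgeR adjusted p = 0.0212 and 0.0142). These 3 genes were named after their values were seen. The most abundant were Lyz2, a lysozyme, with 3226 FPKM in TAE and 801 FPKM in HCC, and the complement gene C1qa, with 496 FPKM in TAE and 220 FPKM in HCC.

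Of 9 stellate cell and fibroblast markers, edgeR called Lum higher and none lower. The list had sums of 1139 to 3012 FPKM in TAE and 448 to 711 FPKM in HCC. The collagen genes Col3a1 and Col1a1 made up most of these sums. Of 6 cholangiocyte markers, led by Spp1 and Epcam, edgeR called Cftr higher. Cftr was low in both groups, with means of 1.37 FPKM in TAE and 0.273 FPKM in HCC. Log2 changes were positive for 5 of the 6 and negative for Krt7 (-0.22). The list had sums of 110 to 251 FPKM in TAE and 17.2 to 58.8 FPKM in HCC. Most of the TAE sums was Spp1, with 209, 88.0 and 176 FPKM in TAE replicates 1, 2 and 3. Of 3 tested neutrophil markers edgeR called Itgam higher. The list had sums of 54.4 to 148 FPKM in TAE and 21.8 to 49.0 FPKM in HCC, mostly of S100a9 and S100a8. Both of these genes overlapped between the groups and did not pass (edgeR adjusted p = 0.213 and 0.132). Mpo, at no more than 0.33 FPKM in any library, was not tested. The edgeR calls in these marker lists stand beside 2.70% of all genes higher. DESeq2 called 6 macrophage, 8 stellate cell and fibroblast, 3 cholangiocyte and 2 neutrophil markers higher, against 8.90% of all genes. Before adjustment, 6, 8, 4 and 3 markers of these lists had an edgeR p under 0.05. Without TAE replicate 3, edgeR called 6 macrophage markers higher and 2 lower, against 4.82% of all genes higher and 3.51% lower. It also called 5 stellate cell and fibroblast, 2 cholangiocyte and 1 neutrophil marker higher in that fit. Without TAE replicate 2 it called 6, 8, 3 and 3 markers of these 4 lists higher, against 14.6% of all genes. Without TAE replicate 1 or any 1 HCC library it called no gene of the table higher.

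The other marker lists gave no edgeR call with all 6 libraries, and no listed marker was at 0 in every library. Endothelial markers, led by Cdh5 and Clec4g, summed to 61.5 to 113 FPKM in TAE and 59.9 to 73.6 FPKM in HCC, where DESeq2 called 1 of 7 higher and 3 had an edgeR p under 0.05 before adjustment. T and NK cell markers, led by Cd8a and Cd4, summed to 252 to 407 FPKM in TAE and 128 to 182 FPKM in HCC, and B and plasma cell markers, led by Jchain and Cd79a, to 35.1 to 133 FPKM in TAE and 13.8 to 20.8 FPKM in HCC. In each of these lymphocyte lists, DESeq2 called 2 genes higher, and 2 had an edgeR p under 0.05 before adjustment. DESeq2 called 8.90% of all genes higher. Without TAE replicate 3, edgeR called 1 endothelial marker lower and 1 higher, against 3.51% of all genes lower and 4.82% higher. It also called 2 T and NK cell and 1 B and plasma cell marker higher in that fit. Without TAE replicate 2 it called 3, 2 and 2 markers of these lists higher, against 14.6% of all genes. TAE replicate 3 stood apart in some lists that do not mark hepatocytes. Erythroid markers, led by Hba-a1 and Hbb, summed to 941 FPKM there, against 245 and 358 FPKM in the other TAE libraries and 279 to 417 FPKM in HCC. Cell cycle genes, led by Top2a and Ccnb1, summed to 112 FPKM there, against 281 and 390 FPKM in the other TAE libraries and 338 to 366 FPKM in HCC. Of these 3 erythroid and 5 cell cycle genes, 0 had an unadjusted p under 0.05 in edgeR and 0 were called by DESeq2. Mitochondrial genes took 5.81% to 6.14% of the counts in TAE and 6.10% to 6.17% in HCC.

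**Figure D5:**
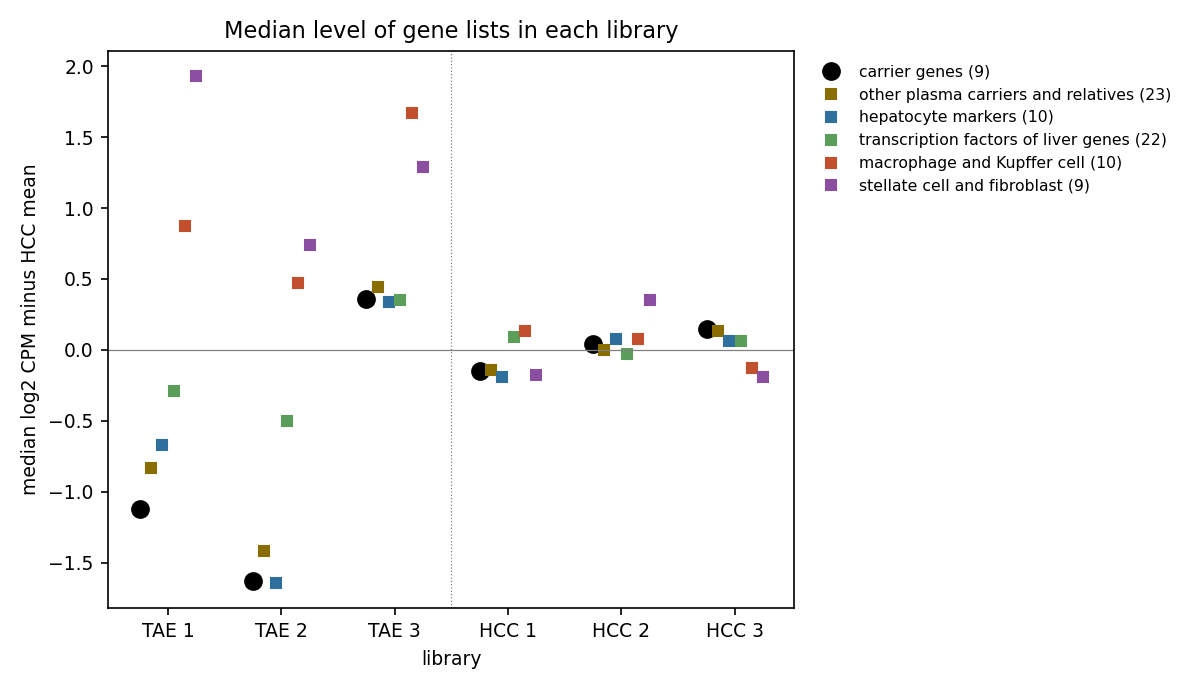
Median log2 CPM of gene lists in each library, each gene taken relative to its HCC mean, with the number of tested genes in the legend. TAE libraries are left of the dotted line and HCC libraries right of it. The carriers, other plasma carriers, hepatocyte markers and transcription factors are below 0 in TAE replicates 1 and 2 and above it in TAE replicate 3. The transcription factors span a narrower range than the carriers. Macrophage and stellate cell markers are above 0 in all 3 TAE libraries.

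Among genes that are no members, the profile over the 6 libraries nearest to that of Alb was that of Dio1, the deiodinase that activates thyroxine. Nearness was the root mean square difference of log2 CPM relative to the HCC mean, over 6724 named genes of at least 10 FPKM on average, and it was 0.06 for Dio1. Dio1 had 13.1, 9.54 and 29.3 FPKM in TAE replicates 1, 2 and 3, against 22.7, 29.6 and 32.1 FPKM in HCC. Kyat3 and Proc followed at 0.07 and Itih1 and Hsd17b13 at 0.08. Among the members, Fetub (0.06), Rbp4 (0.08) and Ambp (0.08) were as near to Alb, while Gc (0.21), Ttr (0.23) and Tf (0.31) were farthest from it. The genes nearest to the median profile of the members were Asgr1, Itih3 and Proc at 0.05, Acsm2 at 0.06 and Serpinc1 at 0.07. Asgr1, a subunit of the hepatocyte receptor that clears plasma glycoproteins lacking sialic acid, had 69.8, 49.3 and 172 FPKM in TAE, against 122, 142 and 154 FPKM in HCC. None of these genes passed the test, with edgeR adjusted p from 0.338 (Hsd17b13) to 0.562 (Itih3). That likeness to the carriers follows from their choice by profile in the same libraries and is no separate result.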

How the data were processed

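RNA of rat liver was measured in 6 libraries, 3 of the TAE group and 3 of the HCC group, grouped by their titles. Per the labels' protocols, poly(A) RNA was made into strand-specific paired-end libraries. The authors deposited 1 table that lists, for every gene and library, its raw read count beside its FPKM, per the file headers. The FPKM values equal the count scaled to exonic size and the library total (100% of values within 0.006). The submitters' processing notes name mRatBN7.2 as the genome build, which the gene coordinates on chromosome 1 exceed. The aligner, the counting tool and its use of strand were not given in the sources used here. Counts without molecular identifiers carry counting error that is small at these levels.

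From the deposited counts, edgeR (4.0.16, R 4.3.3) was run across all genes with TMM scaling, filterByExpr (14499 genes tested), trended dispersion and the quasi-likelihood test, two-sided, TAE minus HCC, without a block, with Benjamini-Hochberg adjustment and a threshold of 0.05. Each standard error was obtained as the size of the log2 change over the root of its F statistic. Log2 CPM used a prior count of 2. Single values per library were compared with an exact permutation test. Alternatives were other scalings, filters, DESeq2 (1.42.0), limma (3.58.1) on log2(FPKM + 1) and log2(FPKM + 0.1) for genes of at least 0.5 FPKM, a replicate block and leaving out each library. The edgeR script was tested on simulated data. No GC check was made, since no genome was used here.

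The members, gene lists and marker lists were chosen with earlier results of these data known, so no gene's p-value was adjusted over a list. The permutation p-values of the 8 ratios to Alb were adjusted over those ratios. Named were all members, genes of each list past the threshold (up to 4 by size of change) with its 2 most abundant genes, and the 5 genes with a profile nearest to Alb and to the members' median. Pltp, Igfals, Apoa4, Clec4f, Marco, Cd163 and LOC681544 were named after their values were seen.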

Additional observations from a re-analysis of the deposited data

How the results depend on the processing

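The 9 measured carrier genes had negative log2 changes under each of the 10 alternatives that kept all libraries, and 0 of 9 passed in each of them. Their median was -0.83 (replicate block) to -0.51 (mean FPKM of at least 5) there, against -0.56 in edgeR with all libraries. Leaving out 1 library in turn moved the median from -1.33 to -0.21 and the number of members past the threshold from 0 to 9, with all 9 past it without TAE replicate 3. The log2 change of Tf then ran from -0.89 to 0.098 and that of Gc from -1.08 to 0.0032. Log2 ratios to Alb near 0 changed sign as well, from -0.25 to 0.057 for Ttr, -0.081 to 0.05 for Rbp4, -0.048 to 0.055 for Ambp, -0.025 to 0.068 for Fetub and -0.13 to 0.082 for Apoh. The difference in the members' share of all counts stayed negative, from -3.11 to -0.858 percentage points, and was -1.86 without mitochondrial genes.

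Over all genes, 437 passed in edgeR, and 720 with upper-quartile scaling, 1036 with library totals only, 896 with library totals without the members, 829 with no filter on low counts, 1667 with DESeq2, and 701 and 709 with limma at a pseudocount of 1 and 0.1. The count was 0 to 3569 when 1 library was left out, and the cause was not tested. With the replicate number as a block, 0 genes and 0 members passed at an adjusted p of 0.05, and 1 member had an unadjusted p under 0.05. Deviations of same-numbered libraries from their group means correlated at 0.1, -0.209 and 0.034. Such values from 3 libraries a group cannot decide whether the numbers pair the samples. With 3 libraries a group that differ this much within TAE, single genes at abundant levels were limited by the spread between libraries and not by depth.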
